A study of Mus musculus with 6 samples.

Results

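The cytosolic and mitochondrial heat shock chaperones were followed in primary murine hepatocytes as 10 genes chosen by name, out of 41388 Ensembl genes with a deposited value. The set held the HSP90 genes Hsp90aa1 and Hsp90ab1, the HSP70 genes Hspa1a, Hspa1b and Hspa8, the J-domain cochaperones Dnaja1 and Dnajb1, the mitochondrial chaperonin genes Hspd1 and Hspe1, and Hsf1. RNA-seq covered 6 libraries of hepatocytes from C57BL/6J mice, 3 treated with adenovirus encoding beta galactosidase (β-gal, replicates 1, 2 and 3) and 3 treated with adenovirus encoding ALOXE3 (Aloxe3, replicates 7, 8 and 9). In both groups the cells were held in growth medium overnight after collagenase digestion, received about 1000000 viral particles per 1000000 cells, and were collected 24 h later. The design asked how forced expression of this lipoxygenase changed the transcriptome, with a bacterial enzyme carried by the same kind of virus as the control. There was no untreated group, so an effect of the virus itself could not be measured. Nothing in the labels states that the libraries of a group came from separate animals or cultures, so p-values measure only the spread between these libraries, which may be technical.

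Heat shock proteins fold other proteins and keep them from aggregating. HSP70 binds exposed hydrophobic stretches in a cycle driven by ATP, J-domain proteins bring clients to it and start that cycle, and HSP90 takes over clients such as kinases and steroid receptors at a later stage of folding. Heat, oxidants and other insults that unfold proteins release the transcription factor HSF1 from chaperones, and it then binds heat shock elements in the promoters of these genes. The liver makes large amounts of secreted and metabolic protein, and hepatocytes depend on chaperones both in the cytosol and in their many mitochondria.

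The level of Aloxe3, the check of the labels, was 2.04, 2.06 and 1.74 RPKM in the β-gal libraries and 42.3, 45.8 and 56.3 RPKM in the Aloxe3 libraries. RPKM counts reads per kilobase of gene and per 1000000 reads, which adjusts for gene length and library size but not for the make-up of a library. Comparisons between genes also depend on the length used and on shared sequence, as given below. The library sizes derived from the values ran from 25521908 to 32431318 reads, so that a single read on 1 kb of transcript stood for 0.0308 to 0.0392 RPKM. Of the hepatocyte genes, Alb and Apob lay at 4362 to 4552 and 232 to 255 RPKM with overlapping groups, as did Hnf4a at 25.4 to 29.3, Cyp2e1 at 2.03 to 2.86 and Asgr1 at 1.46 to 2.27 RPKM. Serpina1a (52.2 with β-gal and 48.3 RPKM with Aloxe3, group means), Apoa1 (243 and 227 RPKM) and F2 (67.3 and 65.2 RPKM) were lower in each Aloxe3 library than in any β-gal library, and Cps1 (0.985 and 1.496 RPKM) and Tat (0.278 and 0.578 RPKM) were higher. None of the 9 hepatocyte genes tested passed the adjusted threshold described below, 3 had an unadjusted p under 0.05 (12.7% of all tested genes did), 4 did not overlap between the groups (19.9% of all tested genes did not), and Tat was too low to be tested. Summed markers of Kupffer cells were 151 to 154 RPKM with β-gal and 133 to 146 RPKM with Aloxe3, nearly all of it Cd68. Their defining gene Clec4f reached at most 0.095 RPKM and Vsig4 at most 0.102 RPKM. Adgre1 was at 1.47 to 1.99, Csf1r at 1.11 to 1.68, Marco at 0.705 to 1.18 and Cd5l at 0.355 to 1.16 RPKM. Endothelial markers summed to 26.0 to 30.1 RPKM with β-gal and 25.9 to 30.0 RPKM with Aloxe3. Stellate cell markers summed to 3.64 to 3.86 RPKM with β-gal and 3.21 to 3.75 RPKM with Aloxe3. Of these, Col1a1 was at 2.09 to 2.53 and Acta2 at 0.794 to 1.06 RPKM. Des, Reln, Pdgfrb and Col3a1 were at or below 0.151 RPKM, and Lrat was listed at 0. The list of cholangiocyte markers summed to 1509 to 1593 RPKM with β-gal and 1577 to 1716 RPKM with Aloxe3, most of it Spp1. Krt19 was at 32.9 to 51.0 and Sox9 at 38.3 to 49.3 RPKM. Krt7, Epcam and Cftr were at or below 0.456 RPKM. The part of these markers in the results was not tested. Genes of the mitochondrial genome made up 6.57%, 6.42% and 6.74% of the summed RPKM in the β-gal libraries and 7.03%, 6.98% and 8.66% in the Aloxe3 libraries, so that the groups did not overlap and Aloxe3 replicate 9 was the highest. That library also stood apart by chi-square per degree of freedom over derived reads, at 10.3 and 11.3 against the other Aloxe3 libraries, where the other replicate pairs were at 3.87 to 6.23. In bulk RNA, fewer cells of a type and less RNA per cell cannot be told apart.

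Promoter sequences are shown for Hspa1a and Hspa1b, whose longest coding transcripts match at 85.3% of aligned bases, and for the partner genes Hspd1 and Hspe1, which lie head to head, so that the elements of each pair can be compared. RefSeq (GRCm38.p6) gave windows from 250 bases before to 50 bases after a start site for 6 of the 10 genes, Hspd1, Hspe1, Dnaja1, Dnajb1, Hspa1a and Hspa1b, with 10 windows in all. A heat shock element is built of GAA units that alternate in direction. The search was for 2 such units, GAANNTTC or TTCNNGAA, each of which is its own reverse complement, so that 1 pass covers both strands. A 3-unit form, with one more alternating unit at the same spacing, was also sought and contains the shorter form. In the sequences below, read 5′ to 3′ on the strand of the named gene and ending at the base before its start site, capitals mark the 2-unit matches.
Hspa1a promoter, chr17:34972157-34972406, minus strand: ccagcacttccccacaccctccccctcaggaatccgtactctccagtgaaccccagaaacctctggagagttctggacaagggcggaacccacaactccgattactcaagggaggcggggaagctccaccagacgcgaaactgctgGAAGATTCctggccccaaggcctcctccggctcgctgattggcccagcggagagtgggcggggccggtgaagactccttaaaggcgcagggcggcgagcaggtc
Hspa1b promoter, chr17:34959239-34959488, minus strand: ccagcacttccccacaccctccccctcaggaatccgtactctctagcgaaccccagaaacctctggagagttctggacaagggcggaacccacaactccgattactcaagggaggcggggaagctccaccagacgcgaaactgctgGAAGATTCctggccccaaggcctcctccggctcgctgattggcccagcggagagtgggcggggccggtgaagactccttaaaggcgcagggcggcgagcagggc
Bases between the Hspd1 and Hspe1 starts, chr1:55087933-55088147, plus strand: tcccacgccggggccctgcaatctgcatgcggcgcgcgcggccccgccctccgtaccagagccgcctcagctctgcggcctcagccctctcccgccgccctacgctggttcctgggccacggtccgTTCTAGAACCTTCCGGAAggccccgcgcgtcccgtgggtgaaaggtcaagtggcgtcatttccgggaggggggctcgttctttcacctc

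The Hspa1a and Hspa1b promoters matched at 247 of 250 bases and carried the same 2-unit element, 104 bases before the start site in each. Between Hspd1 and Hspe1, which are read in opposite directions from start sites with 215 bases between them, 3 overlapping 2-unit matches formed a run that holds the 3-unit form. It began 89 bases before the start of Hspe1. The window of the Hspd1 start site at the other end of this stretch contained the same bases. Thus 2 of the 10 windows had the 3-unit form, through a single stretch of DNA, as did 0.603% of all 32851 promoter windows of 300 bases. The 2-unit form was in 5 of the 10 windows, 1 each for 5 of the 6 genes, and in 15.1% of all windows. The windows without a match were both of Dnajb1, 2 of the 3 of Dnaja1 and that of the other Hspd1 start site. Only perfect units were sought and only within these windows, so an imperfect or more distant element would not have been found.

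The members spanned a wide range of levels. Hsp90ab1 (chr17:45567775-45573271, minus strand, GENCODE M21 on GRCm38, as for the genes below), the constitutive cytosolic HSP90, had 840, 854 and 878 RPKM in the β-gal libraries and 883, 859 and 916 RPKM in the Aloxe3 libraries. On this scale it made up 72.0% to 73.9% of the summed RPKM of the 10 genes. It was 9.03 times the next member, Hspa8 (chr9:40800984-40810087, plus strand), the constitutive HSP70, whose level was 92.4 to 105 RPKM over the 6 libraries. The mitochondrial chaperonin gene Hspd1 (HSP60, chr1:55077835-55088243, minus strand) followed at 72.5 to 73.7 RPKM and the inducible cytosolic HSP90 gene Hsp90aa1 (chr12:110690605-110702728, minus strand) at 43.6 to 49.5 RPKM. Hspe1 (HSP10, chr1:55088132-55091307, plus strand), which encodes the lid of the HSP60 barrel, lay at 38.0 to 43.5 RPKM, the transcription factor gene Hsf1 (chr15:76477422-76501913, plus strand) at 32.3 to 36.6 RPKM, and Dnajb1 (HSP40, chr8:83608193-83612653, plus strand), a J-domain partner of HSP70, at 22.9 to 26.2 RPKM. In the lower part were Dnaja1 (chr4:40722150-40737149, plus strand), a farnesylated J-domain cochaperone, at 3.95 to 4.93 RPKM, and the stress-inducible HSP70 genes Hspa1b (chr17:34956436-34959238, minus strand) at 0.579 to 0.891 RPKM and Hspa1a (chr17:34969190-34972156, minus strand) at 0.057 to 0.145 RPKM. No pair of neighbours in this order overlapped over the 6 libraries. Among the 12693 genes tested, Hsp90ab1 was at the 99.7th percentile of mean RPKM, Hspa8 at the 96.3rd, Dnajb1 at the 81.0th, Dnaja1 at the 38.9th and Hspa1b at the 7.56th. Hsp90ab1, which cells use at all times, and the stress-inducible Hspa1a thus stood at the ends of the order in both groups.

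**Figure D1:**
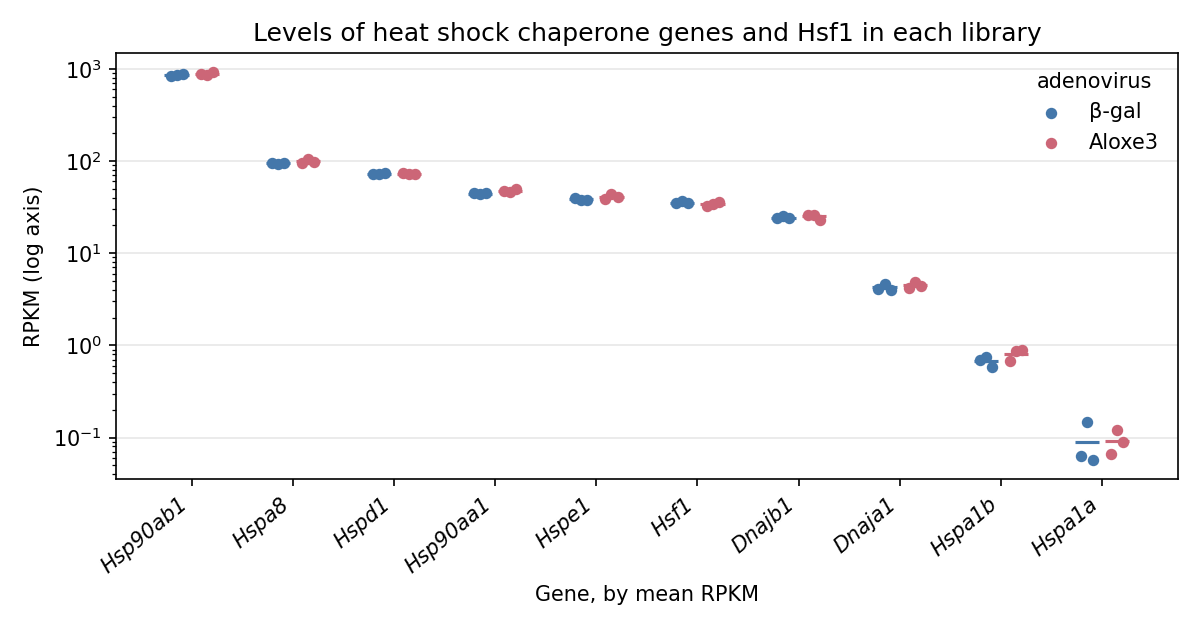
Level of each gene in every library, in RPKM on a log axis, with genes ordered by mean level; points are the 3 β-gal (blue) and 3 Aloxe3 (red) libraries and short lines their means. Hsp90ab1 has a mean of 872 RPKM and Hspa1a one of 0.0904 RPKM, and the points of both groups overlap in each gene but Hsp90aa1. The spread is widest for Hspa1a, from 0.057 to 0.145 RPKM.

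How firmly a level can be read depended on the sequence of the gene, because only reads that align to a single place were counted. Of the distinct stretches of 50 bases, the read length, in the annotated transcripts of Hspa1a (GENCODE M21), 66.3% also occurred in transcripts of another gene, and for Hspa1b the share was 62.3%, each the other's main partner. Hsp90aa1 shared 47.5% of its stretches with other genes, chiefly with the transcribed processed pseudogene Gm12346, Hspd1 shared 42.1%, chiefly with the processed pseudogene Hspd1-ps3, and Hspa8 39.4%, chiefly with the processed pseudogene Gm15459 (34.6%) and the lincRNA gene Gm26825 (34.05%). The share was 22.8% for Hspe1, 20.6% for Dnaja1, 3.44% for Hsp90ab1, 0.412% for Dnajb1 and 0% for Hsf1. These shares also count genes that overlap a member at the same place, where a read can still align to a single place. Such genes were Gm20481 (16.2% of the stretches of Hspa1a) and Smu1 (6.37% of those of Dnaja1). Hspd1 and Hspe1 overlap each other in the same way (2.36% and 4.42%). The deposited levels of Hspa1a and Hspa1b therefore rest on the part of each transcript that differs, with 5 to 14 reads per library for Hspa1a and 48 to 74 for Hspa1b. Dividing each mean RPKM by the unshared share gave 903 for Hsp90ab1, 159 for Hspa8, 126 for Hspd1, 87.6 for Hsp90aa1, 51.5 for Hspe1, 34.7 for Hsf1, 24.7 for Dnajb1, 5.51 for Dnaja1, 1.96 for Hspa1b and 0.268 for Hspa1a, and left the order as it was. The divided values do not measure the reads lost to shared sequence. The length used also entered each level. For Dnaja1 it was 8629 bases, the union of its annotated exons, against 5622 bases for its longest coding transcript. For Hsf1 the union was 7099 bases in GENCODE M21, and the smallest length that turned its values into whole reads was 2018 bases. Exons of other genes overlapped 19.0% of the exon bases of Hspa1a (Gm20481, opposite strand), 112 bases of Hspd1 and Hspe1 (each other, opposite strands), 10.8% of Dnaja1 (Gm6297 and Smu1 on the opposite strand, Mir207 on the same) and 6.09% of Hspa8 (small nucleolar RNA genes on the same strand), and without a stated strand setting such reads cannot be told apart.

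**Figure D2:**
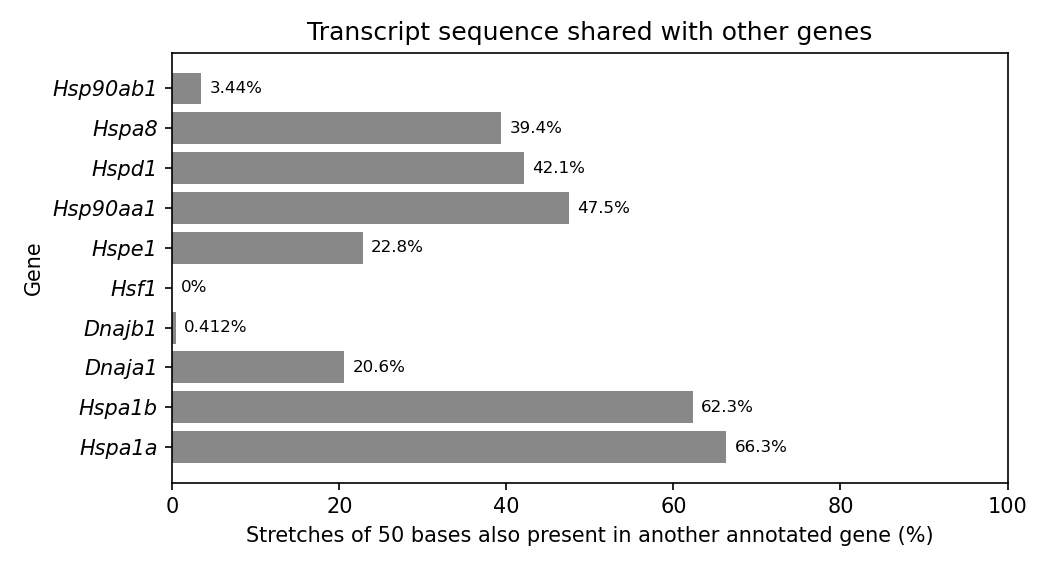
Percentage of the distinct 50-base stretches of each gene's annotated transcripts (GENCODE M21) that also occur in a transcript of another gene, with genes in order of level. The shares of Hspa1a and Hspa1b are above 60%, and those of Hsf1, Dnajb1 and Hsp90ab1 below 4%. Genes that overlap at the same place are included.

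None of the 9 heat shock genes tested passed the test between hepatocytes overexpressing Aloxe3 and hepatocytes expressing β-gal. Of the 9 with a mean of at least 0.5 RPKM, 0 had an adjusted p under 0.05 (limma, Benjamini-Hochberg over 12693 genes), where 0.394% of the tested genes did (0.355% higher and 0.0394% lower with Aloxe3), and Hspa1a was too low to be tested. Before adjustment Hsp90aa1 alone, 1 of the 9, was under 0.05, as were 12.7% of the tested genes (7.31% higher and 5.42% lower). With voom, a count-based variant of limma run on derived reads, 0 of the 9 passed as well, where 1.36% of 12692 genes did. Log2 fold changes, on the log2(RPKM + 1) scale, were positive for 7 of the 9 and for 52.4% of the tested genes. Their median was 0.07, and that of all tested genes was 0.0049. The adjusted p ran from 0.315 to 0.979.

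Hsp90aa1 had the smallest p of the set. It lay at 44.7, 43.6 and 44.6 RPKM in the β-gal libraries and at 47.4, 46.3 and 49.5 RPKM in the Aloxe3 libraries. Each Aloxe3 library was above each β-gal library, which held for 1 of the 9 genes. Of the tested genes 19.9% were so separated, 11.2% with Aloxe3 above and 8.71% with Aloxe3 below. The log2 fold change was 0.11 (SE 0.037, 95% interval 0.02 to 0.19), which is 1.01 to 1.14-fold, with an adjusted p of 0.315 from limma. Without Aloxe3 replicate 9, the library with the highest value of Hsp90aa1 and the largest share of mitochondrial genome transcripts, it was 0.08. The part of that share in the result was not tested. Hsp90ab1 overlapped between the groups, with a log2 fold change of 0.05 (SE 0.043, 95% interval -0.05 to 0.15). It was 0.0093 with quantile normalization and 0.023 without Aloxe3 replicate 9. Its mean ± SD over 3 libraries was 857 ± 19 RPKM in the β-gal group and 886 ± 29 RPKM in the Aloxe3 group.

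Among the HSP70 genes, Hspa8 was at 94.6, 92.4 and 95.4 RPKM with β-gal and at 94.7, 105 and 96.8 RPKM with Aloxe3. Replicate 8 stood above the other 5 libraries, and replicate 7 was within the range of the β-gal libraries. The log2 fold change of Hspa8 was 0.07 (SE 0.046, 95% interval -0.04 to 0.18), and 0.025 without replicate 8. Hspa1b was at 0.686, 0.748 and 0.579 RPKM with β-gal and at 0.671, 0.868 and 0.891 RPKM with Aloxe3, and the groups overlapped. Its log2 fold change was 0.11 (SE 0.079, 95% interval -0.07 to 0.30), the widest interval of the set. The size depended on the pseudocount, which is large beside values under 1 RPKM, and was 0.24 with a pseudocount of 0.1 and 0.27 with voom. It was 0.17 without Aloxe3 replicate 7 and 0.07 without β-gal replicate 3. Hspa1a was at 0.0627, 0.145 and 0.057 RPKM with β-gal and at 0.066, 0.122 and 0.0893 RPKM with Aloxe3, from 6, 14 and 5 and from 5, 11 and 7 reads. The highest library of Hspa1a was β-gal replicate 2, and no difference in this gene was detectable at this depth. With both genes summed, a choice made after seeing the data, there were 68, 82 and 53 reads with β-gal and 53, 85 and 73 with Aloxe3 (difference of log2(RPKM + 1) 0.11, and 0.25 with no pseudocount, exact permutation test, two-sided p = 0.3 for each).

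The J-domain genes showed as little. Dnajb1 was at 23.8, 25.1 and 23.9 RPKM with β-gal and at 26.0, 26.2 and 22.9 RPKM with Aloxe3. Replicate 9 had the lowest value of the 6 libraries, and replicates 7 and 8 had the highest. The log2 fold change of Dnajb1 was 0.04 (SE 0.055, 95% interval -0.09 to 0.17), and it was 0.10 without Aloxe3 replicate 9, 0.013 without replicate 7 and 0.0073 without replicate 8. It was 0.06 without β-gal replicate 2. Dnaja1 was at 4.13, 4.66 and 3.95 RPKM with β-gal and at 4.21, 4.93 and 4.37 RPKM with Aloxe3, overlapping, with a log2 fold change of 0.07 (SE 0.07, 95% interval -0.09 to 0.23). It was 0.014 without Aloxe3 replicate 8, 0.028 without β-gal replicate 3, 0.11 without Aloxe3 replicate 7 and 0.12 without β-gal replicate 2.

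The mitochondrial chaperonin genes differed in spread. Hspd1 was at 72.8, 73.0 and 73.7 RPKM with β-gal and at 73.7, 73.0 and 72.5 RPKM with Aloxe3. Its coefficient of variation was 0.652% in the β-gal group and 0.848% in the Aloxe3 group, the smallest of the set in both. The log2 fold change of Hspd1 was -0.0028 (SE 0.03), with a 95% interval of 0.950 to 1.05-fold. Hspe1 was at 39.9, 38.2 and 38.0 RPKM with β-gal and at 38.4, 43.5 and 40.5 RPKM with Aloxe3. Replicates 8 and 9 were above the β-gal libraries and replicate 7 was among them (log2 fold change 0.07, SE 0.05, 95% interval -0.04 to 0.19). The log2 fold change of Hspe1 was 0.028 without replicate 8 and 0.11 without replicate 7.

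Hsf1, which encodes the transcription factor of the heat shock response, was at 34.6, 36.6 and 35.1 RPKM with β-gal and at 32.3, 34.1 and 35.6 RPKM with Aloxe3. Replicates 7 and 8 were below every β-gal library, and replicate 9 was within their range. Its log2 fold change was -0.06 (SE 0.045, 95% interval -0.16 to 0.05), the lowest of the set. It was -0.035 without β-gal replicate 2, -0.023 without Aloxe3 replicate 7 and -0.09 without Aloxe3 replicate 9. The mRNA level of Hsf1 does not report the activity of the protein, which is controlled after translation.

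**Figure D3:**
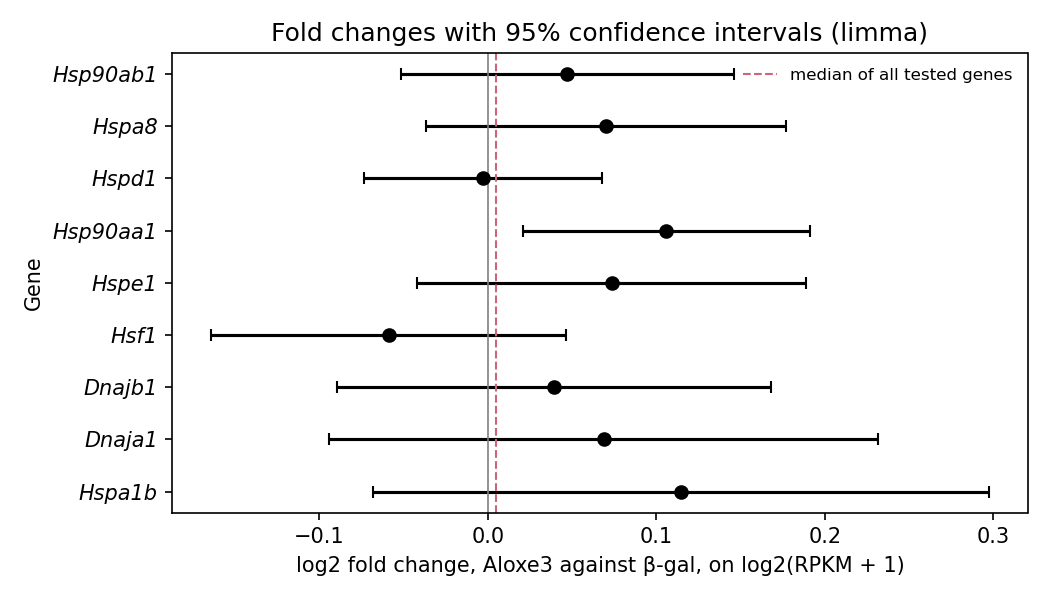
Log2 fold change of each tested gene between Aloxe3 and β-gal libraries (x axis, on the log2(RPKM + 1) scale) with its 95% confidence interval from limma; the dashed line is the median of the 12693 tested genes. The interval of Hsp90aa1 lies to the right of 0, the other 8 include 0, and no gene passed after adjustment.

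By library, the median difference of the 9 tested genes from the β-gal mean was 0.01 in Aloxe3 replicate 7, 0.10 in replicate 8 and 0.04 in replicate 9, on the log2(RPKM + 1) scale. The median of all tested genes was 0.01, 0.02 and -0.01 in the same libraries, so that replicate 7 was close to its own background. Replicate 8 held the highest value of Hspa8, Hspe1, Dnaja1 and Dnajb1, and replicate 9 that of Hsp90aa1, Hsp90ab1 and Hspa1b. Without replicate 8 the median log2 fold change of the 9 genes was 0.02, and without replicate 7 it was 0.10.

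**Figure D4:**
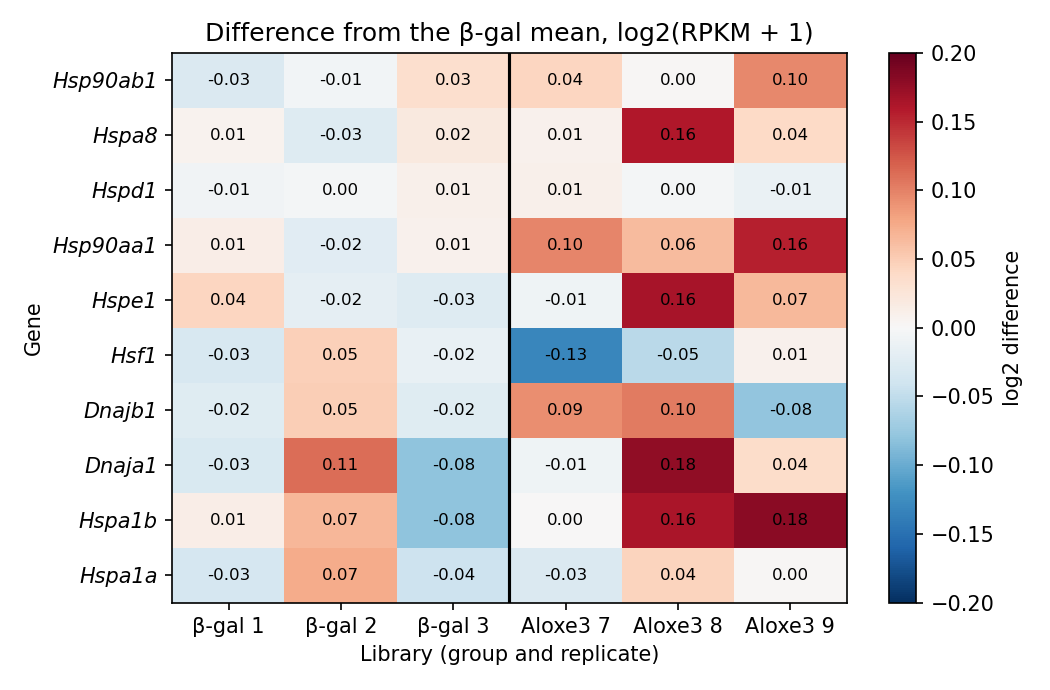
Difference of each gene in each library from its mean over the 3 β-gal libraries, on the log2(RPKM + 1) scale; columns are libraries, rows genes in order of level, red higher and blue lower. Values at or above 0.15 occur only in Aloxe3 replicates 8 and 9, and the row of Hspd1 stays within 0.02 of 0.

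The balance between paired members was read within each library, which removes any error common to both genes. Hsp90aa1 was 5.32%, 5.10% and 5.08% of Hsp90ab1 with β-gal and 5.37%, 5.40% and 5.40% with Aloxe3. The groups did not overlap and the log2 ratio differed by 0.06 (p = 0.1 in a two-sided exact permutation test, the smallest that 3 libraries against 3 allow, and 0.3 after adjustment over 3 ratios). With quantile normalization it differed by 0.11. The summed inducible genes Hspa1a and Hspa1b were 0.791%, 0.967% and 0.667% of Hspa8 with β-gal and 0.778%, 0.941% and 1.01% with Aloxe3, and overlapped (difference of the log2 ratio, with no pseudocount, 0.18, exact p = 0.5). That difference was 0.04 with a pseudocount of 1 and 0.08 with quantile normalization. It was 0.05 without β-gal replicate 3, 0.10 without Aloxe3 replicate 9, 0.29 without Aloxe3 replicate 7 and 0.32 without β-gal replicate 2. Hspe1 was 51.5% to 54.8% of Hspd1 with β-gal and 52.1%, 59.6% and 55.9% with Aloxe3 (difference of the log2 ratio 0.08, exact p = 0.3). This was 0.03 without Aloxe3 replicate 8 and 0.13 without Aloxe3 replicate 7. In each of the 3 ratios the genes differ in the share of sequence they have in common with other genes, so its absolute size depends on the counting.

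The proteins that work with these chaperones were examined as lists of partner genes. Of 17 tested cochaperones of HSP90, 0 passed the adjusted threshold of limma, and the 4 with an unadjusted p under 0.05 were split, 2 higher and 2 lower (voom 0), where 7.31% of the tested genes were higher and 5.42% lower. Their median log2 fold change was -0.0003. Ppid (cyclophilin 40) was at 9.70 ± 0.19 RPKM in the β-gal group and 10.6 ± 0.18 in the Aloxe3 group (SD, n = 3 each, log2 fold change 0.12, adjusted p = 0.289 from limma). Pih1d1, part of the R2TP complex that assembles large complexes with HSP90, was at 12.8 ± 0.33 and 10.9 ± 0.89 RPKM (log2 fold change -0.22, adjusted p = 0.249 from limma). In both the groups did not overlap, as in 4 of the 17, 3 higher and 1 lower with Aloxe3, against 11.2% and 8.71% of the tested genes.

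Of 27 tested HSP70 partners and other cytosolic HSP70 genes, 1 rose and 0 fell, where 0.355% and 0.0394% of the tested genes did, with a median of 0.02. Voom called the same gene and no other of the list. The one that rose was Dnajc9, a nuclear J-domain protein that acts as a chaperone of histones H3 and H4. Dnajc9 was at 8.06, 8.56 and 7.65 RPKM with β-gal and at 11.03, 11.8 and 11.5 RPKM with Aloxe3, so that the groups were far apart. The difference was 0.45 on the log2 scale (SE 0.049), and limma gave an adjusted p of 0.0215. This became 0.0474 without β-gal replicate 2 and between 0.062 and 0.0784 without any of the other 5 libraries, and 0.12 with no filter on low values. The log2 fold change itself was 0.42 to 0.49 with a library left out and 0.45 with no filter. Bag2, which promotes release of nucleotide from HSP70, was next, at 6.97 ± 0.24 RPKM in the β-gal group and 7.99 ± 0.38 in the Aloxe3 group (SD, n = 3 each, log2 fold change 0.17, adjusted p = 0.246 from limma).

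No small heat shock protein gene passed (0 of 6 tested, 0 at an unadjusted p under 0.05, voom 0), and 5 of the 6 had negative log2 fold changes, with a median of -0.05. Over all tested genes 0.394% passed, 12.7% had an unadjusted p under 0.05 and 52.4% had positive log2 fold changes, and a list this short says little beside those shares. These proteins hold unfolded clients without ATP. Hspb1 (HSP25) was at 81.9, 78.8 and 81.3 RPKM with β-gal and at 75.1, 65.1 and 78.8 RPKM with Aloxe3, where the highest Aloxe3 library lay just under the lowest β-gal library. Hspb8, which works with BAG3 in autophagy of unfolded clients, was at 132 ± 1.4 RPKM in the β-gal group and 127 ± 0.68 in the Aloxe3 group (SD, n = 3 each, adjusted p = 0.522 from limma). In the mitochondrion, 0 of 19 chaperone and protease genes passed (0 at an unadjusted p under 0.05, against the same 12.7%, voom 0), with a median of -0.01. Pmpca, a subunit of the processing peptidase, and Afg3l2, an inner membrane protease, had the smallest p of that list, with log2 fold changes of -0.10 and -0.06. Among 3 tested heat shock factors and their regulators, too few to set against these shares, 0 passed (0 at an unadjusted p under 0.05, voom 0). Hsf2 was at 8.27 ± 0.30 and 8.47 ± 0.57 RPKM, and Hsbp1, whose product binds HSF1, at 131 ± 5.5 and 123 ± 4.2 RPKM (SD, n = 3 each).

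Chaperones outside the set were taken beside it, one family in the cytosol and one in the endoplasmic reticulum (ER). The cytosolic chaperonin CCT and prefoldin, which fold actin and tubulin, had negative log2 fold changes in 12 of 15 genes, with a median of -0.06, where 52.4% of the tested genes were positive. Of the 15, 0 passed (limma and voom), 2 were lower at an unadjusted p under 0.05, against 5.42% of the tested genes, and 5 lay lower without overlap, against 8.71%. Pdrg1 was at 18.3 ± 0.33 and 16.1 ± 1.3 RPKM and Pfdn2 at 54.8 ± 1.7 and 51.4 ± 0.50 RPKM (SD, n = 3 each). The ER chaperones had positive log2 fold changes in 18 of 19 genes, against 52.4% of the tested genes, with a median of 0.11. The groups did not overlap in 8 of the 19, each higher with Aloxe3, against 11.2%. None passed in limma, 0 of 19, with 7 of the 19 higher at an unadjusted p under 0.05, against 7.31% of the tested genes. With voom 2 of the 19 were past the threshold, Hsp90b1 and Pdia4, both higher, against 1.16% of the genes. Dnajc3, an ER cochaperone that also restrains the kinase PERK, was at 37.2 ± 1.1 and 41.4 ± 1.3 RPKM. The difference between these lists and the heat shock genes was not tested.

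**Figure D5:**
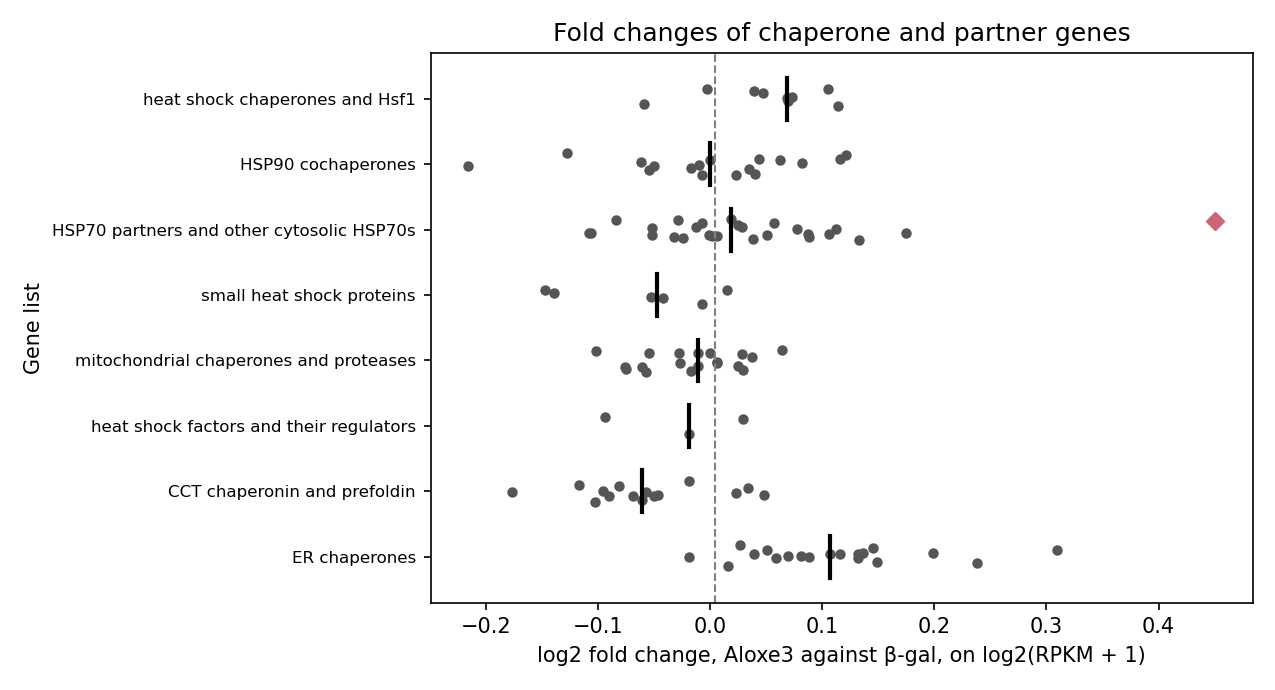
Log2 fold changes between Aloxe3 and β-gal libraries (x axis, log2(RPKM + 1) scale) of the tested genes in each list; dots are genes, black bars list medians, the red diamond the gene past the adjusted threshold, and the dashed line the median of all tested genes. Dnajc9 stands alone at 0.45, the ER chaperones centre at 0.11 and the CCT and prefoldin genes at -0.06.

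The same 2 protein families also work in the ER and in mitochondria, from separate genes, and these were compared after their values were seen. The ER HSP90 gene Hsp90b1 (GRP94) was at 150, 169 and 164 RPKM with β-gal and at 185, 217 and 198 RPKM with Aloxe3, with no overlap. Its difference was 0.31 on the log2 scale (SE 0.067), at an adjusted p of 0.152 in limma. The mitochondrial HSP90 gene Trap1 was at 80.9 ± 2.2 RPKM in the β-gal group and 77.8 ± 3.2 in the Aloxe3 group (SD, n = 3 each), and its log2 ratio to Hsp90ab1 differed by -0.10 (exact p = 0.3). Relative to Hsp90ab1, the log2 level of Hsp90b1 was 0.26 higher with Aloxe3 (p = 0.1 in the two-sided exact permutation test, and 0.25 after adjustment over 5 pairs), and each Aloxe3 library was above each β-gal library. Relative to Hsp90aa1 it was 0.20 higher (exact p = 0.1, adjusted p = 0.25). The HSP70 genes showed no such separation. Hspa5 (BiP) of the ER was at 427 ± 16 and 446 ± 27 RPKM, and its log2 ratio to Hspa8 differed by -0.01 (exact p = 0.9). Hspa9 (mortalin) of the mitochondrion was at 280 ± 11 and 280 ± 5.3 RPKM, with a log2 ratio to Hspa8 that differed by -0.07 (exact p = 0.2). Several of these 5 pairs have a gene in common (Hsp90b1, Hsp90ab1 or Hspa8) and are not independent.

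The 5 genes most like Hsp90aa1 over the 6 libraries were Fmr1, Naa50, Mast2, Mad2l2 and Orc3, by the root mean square difference of the log2 values after centring each gene. This was 0.0079 for Fmr1 and 0.0152 for Orc3, among 12684 genes with a median of 0.0924. Within the set, Hsp90ab1 was the nearest, at 0.0363, and Dnaja1 the farthest, at 0.103. The libraries include both groups, so this likeness holds the group difference as well as the spread within groups.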

How the data were processed

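RNA was measured by poly-A selected, single-read sequencing of 50 bases in 6 libraries from 1 run. Reads were aligned by the authors with STAR 2.0.4b (GRCm38.p2 in the submitters' processing notes), and uniquely aligned unambiguous reads were counted per gene with featureCounts 1.4.5. The authors deposited the values as RPKM, and the step from counts to RPKM and the strand setting are not given in the sources used here. No batch was named, and none was fitted.

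Symbols (40254 of 41388 identifiers) and coordinates came from GENCODE M21 (GRCm38). Library size in reads was read from the whole-number steps of RPKM times exon length (tolerance 0.01 reads). For Hspa8, Dnajb1 and Hsf1, whose annotated length gave no whole reads, the smallest length that did was used. Replicate pairs differed by more than the sampling noise (chi-square per degree of freedom 3.87 to 11.3), so each library was kept. Values were tested as log2(RPKM + 1) in the 12693 genes averaging 0.5 RPKM or more. The test was limma 3.58.1 (R 4.3.3), two-sided, with a trended eBayes step after lmFit and Benjamini-Hochberg adjustment at 0.05. It was also run on simulated reads with known changes, all larger than those estimated for the members. That run does not show how often changes as small as theirs are called. A change on this scale understates that of low genes. Ratios within a library were compared by exact permutation. Python 3.11.15, numpy 2.4.6 and pandas 2.3.3 were used. The named genes are the 10 members, Aloxe3, the 2 with the smallest p in each list together with any past the threshold, the 5 most like the member with the smallest p, and the markers. Genes outside this rule (Trap1, Hspa5, Hspa9, Pdia4, and the genes that share sequence or overlap with members) were added once their values were known. The members and lists were chosen with earlier results of these data known. Alternatives were a pseudocount of 0.1, no filter, a filter at 5 RPKM, median rescaling, quantile normalization, eBayes without trend, voom on derived reads and each library left out. Sums, compartment ratios and the division by unshared sequence were added after seeing the data.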

Additional observations from a re-analysis of the deposited data

How the results depend on the processing

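The count of heat shock genes past the threshold was 0 under each of the 13 alternatives, with 7 to 10 genes tested, and the median of their log2 fold changes ran from 0.02 to 0.10 with a library left out and from 0.04 to 0.07 otherwise. The direction of Hspd1 was not fixed: its log2 fold change was 0.032 with quantile normalization and ran from -0.0092 to 0.0027 with a library left out (above 0 without β-gal replicate 3 or without Aloxe3 replicate 9). The other 8 tested genes kept their direction. The unadjusted p of Hsp90aa1 was 0.0687 after median rescaling and 0.0816 without β-gal replicate 2, and under 0.05 otherwise. The difference of the Hsp90aa1 to Hsp90ab1 log2 ratio was 0.11 with quantile normalization, against 0.06, and 0.05 to 0.08 with a library left out. That of the HSP70 ratio was 0.18, but 0.04 with a pseudocount of 1, 0.08 with quantile normalization and 0.05 to 0.32 with a library left out. That of Hspe1 to Hspd1 was 0.03 to 0.13 with a library left out. Of the HSP70 partner genes 0 passed with no filter on low values, and 0 to 1 with a library left out. With no filter 24989 genes were tested in place of 12693. The unadjusted limma p of Dnajc9 was then 7.69e-05, against 2.13e-05 with the filter. With voom 2 ER chaperone genes passed. The causes of these shifts were not tested. The labels state no pairing of libraries between the groups, so no paired analysis was run, and a pairing, if there was one, was not used. Hspa1a, with 5 to 14 reads, was below the filter and was tested only without it, where it did not pass, and shared sequence limits what its reads and those of Hspa1b can show.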
